A study of Mus musculus with 2 samples.

Results

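The transcripts described here are p53, its relative p73, the negative regulators of p53 and genes grouped with them as p53 targets. They were read in a mouse cell line that was made to carry the long noncoding RNA AI662270. The set holds 35 named genes with roles in cell cycle arrest, DNA repair, cell death and metabolism. Genes of the BCL2 family were left out of it. Members were found by their exact symbol in the deposited table of 54713 rows. Of the 35 genes, 34 were in the table and 33 were measured, which here means a mean of at least 1 CPM (counts scaled to a common library size) across both libraries. Epha2os was not matched to a row and has no value here.

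RNA was sequenced from SV40 MES13, a line that the labels describe as mouse kidney mesangial cells. One subline had been infected with a control lentivirus (Lv_NC, genotype given as WT) and the other with a lentivirus for the long noncoding RNA (Lv_AI662270, genotype given as overexpression of lncRNA AI662270). Per the labels' protocol both sublines were selected with puromycin at 0.5 mg/ml and kept at 0.25 mg/ml in medium with 10% serum, and the treatment is given as untreated. That protocol also names the cell line as the virus's insert and Sox9 as the gene checked, so its details are uncertain. The labels do not say whether a subline is a single clone. Each group held 1 library, so no difference has a replicate check and every comparison is between these 2 libraries, not between conditions. Paired values give the control first and the AI662270 library second. A bracketed range is an exact 95% counting interval and does not cover differences between cultures or between ways of scaling.

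The p53 protein is a transcription factor that accumulates when DNA is damaged or cells are stressed, and it switches on genes that stop the cell cycle, repair DNA or start cell death. Mdm2 and Mdm4 hold it down, and Mdm2 is itself a p53 target, which closes a feedback loop. In cells that carry SV40 sequences the viral large T antigen can bind p53 and block its activity. Viral transcripts were not analysed here. Several p53 targets also answer to other signals: Plk2 and Plk3 are induced by serum, and Gadd45a and Gdf15 by amino acid and endoplasmic reticulum stress.

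The transcript AI662270 itself had 0 and 241 counts. With the control library set to a floor of 3 counts, it was 78.4-fold higher with the AI662270 virus, a value given without a counting interval. The libraries held 15727023 and 15062482 counts. Of 8 mesangial markers, Itga8 and Thy1 had 0 counts in both libraries and 4 reached the minimum of 1 CPM, and the list summed to 20 and 38.4 CPM. Its members went both ways: Acta2, with 12 and 171 counts, was called higher and Gata3, with 76 and 25, lower. Of 6 tubular epithelium markers, Slc34a1 and Umod had 0 counts in both libraries, while Cdh1, the E-cadherin gene, had 2175 and 1030 counts and Epcam 2810 and 1626. Cdh1 and Aqp1, the latter with 232 and 64 counts, were called lower. Epcam was not called, and Lrp2 was nearly level at 693 and 740 counts. That epithelial list summed to 389 and 222 CPM. Podocyte markers summed to 149 and 83.2 CPM, with Podxl called lower at 1869 and 661 counts and Nphs1 at 0 counts in both. Others of that list went the opposite way: Synpo had 394 and 614 counts, not called, and Wt1, below the minimum, had 0 and 22. Endothelial markers summed to 0.592 and 1.41 CPM, with Tek and Emcn at 0 in both, and leukocyte markers to 6.84 and 4.94 CPM, with Adgre1 and Cd3e at 0 in both. The mesangial label thus has 4 of its 8 markers below the minimum, and epithelial genes were present. The part of these shifts in the results below was not tested.

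Promoter sequences are shown for members that stood apart and for Cdkn1a, the best known target. They are RefSeq start sites on build GRCm38.p6, from 250 bases before the start, and 26 of the 34 members in the table had a window there. The p53 decamer is the 10-base unit that p53 binds, usually as a pair. It was searched on both strands, as a single unit and as a pair with up to 13 bases between, beside the cyclic AMP element TGACGTCA, the amino acid response core TGATGNAA and the serum response CArG box, and in member windows no match overlapped one of another motif. Capitals mark the match in each sequence. The first 3 stretches run from the base 250 before the start up to the start for the most changed members, and the others hold 25 bases on each side of the matches.
Gadd45a, chr6:67037408-67037657, minus strand, p53 decamer in capitals: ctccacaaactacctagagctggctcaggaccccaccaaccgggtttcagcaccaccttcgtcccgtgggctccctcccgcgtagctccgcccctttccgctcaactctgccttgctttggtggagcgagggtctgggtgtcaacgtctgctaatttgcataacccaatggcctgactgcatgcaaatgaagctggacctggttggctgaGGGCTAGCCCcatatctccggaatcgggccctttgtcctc
Plk2, chr13:110394794-110395043, plus strand, cyclic AMP element in capitals: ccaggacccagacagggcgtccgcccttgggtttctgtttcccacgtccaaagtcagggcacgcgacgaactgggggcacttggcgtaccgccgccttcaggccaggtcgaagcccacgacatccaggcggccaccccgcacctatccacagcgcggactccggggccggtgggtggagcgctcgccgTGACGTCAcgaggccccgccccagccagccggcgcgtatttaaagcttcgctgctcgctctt
Fas, chr19:34290409-34290658, plus strand, no match: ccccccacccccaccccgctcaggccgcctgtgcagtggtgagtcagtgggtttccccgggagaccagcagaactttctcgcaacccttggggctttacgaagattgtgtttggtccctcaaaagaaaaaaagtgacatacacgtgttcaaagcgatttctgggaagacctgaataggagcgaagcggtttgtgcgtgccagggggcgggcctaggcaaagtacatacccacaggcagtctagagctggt
Ccng1, chr11:40755437-40755496, minus strand, p53 decamer in capitals: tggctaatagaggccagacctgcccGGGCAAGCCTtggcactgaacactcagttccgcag
Sesn1, chr10:41887241-41887300, plus strand, p53 decamer in capitals: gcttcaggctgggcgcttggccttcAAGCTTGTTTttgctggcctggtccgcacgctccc
Cdkn1a, chr17:29090881-29090962, plus strand, 2 p53 decamers in capitals: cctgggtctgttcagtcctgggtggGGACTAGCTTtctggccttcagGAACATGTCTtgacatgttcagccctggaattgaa

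A single p53 decamer was present in 11 of 33 member windows, from 10 genes, and in 8.36% of all 32851 windows of 300 bases. A pair was present in 1 member window, the upstream start site of Cdkn1a, and in 0.0731% of all windows. Among the 7 members that passed the rule of size described below, Gadd45a, Ccng1 and the downstream start of Sesn1 held a single decamer, and Fas, Plk2, Plk3 and Gdf15 held none. The cyclic AMP element was found in Plk2 and Ppm1d and in 1.79% of all windows. The amino acid response core was found in Gadd45g and Polk and in 3.97% of windows, and the CArG box in Tigar and in 1.63%. The single decamer thus occurred in a lower member, Gadd45a, and in higher ones, Ccng1 and Sesn1. The absence of these letters from a window says nothing on sites elsewhere in a gene.

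The p53 members split into a few large differences and many small ones. A gene was called higher or lower in the AI662270 library when its log2 ratio (AI662270 over control, with a pseudocount of 0.5 CPM) reached 1 in size and the counting interval of its ratio did not hold 1. By this rule Fas, Ccng1 and Sesn1 were higher, and Gadd45a, Plk2, Gdf15 and Plk3 were lower. The 3 higher members are 9.09% of those measured, where 5.59% of all 13268 measured genes were called higher. The 4 lower members are 12.1%, where 5.72% of all measured genes were called lower. The median log2 ratio of the 33 members was -0.05, against -0.02 over all measured genes, and 16 members lay above 0 and 17 below. The other 26 members had log2 ratios between -0.70 and 0.59. With the scaling used here, the interval excluded 1 in 19 of these 26, with 9 above 1 and 10 below. At this depth many differences of under 2-fold thus exceed counting error.

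**Figure D1:**
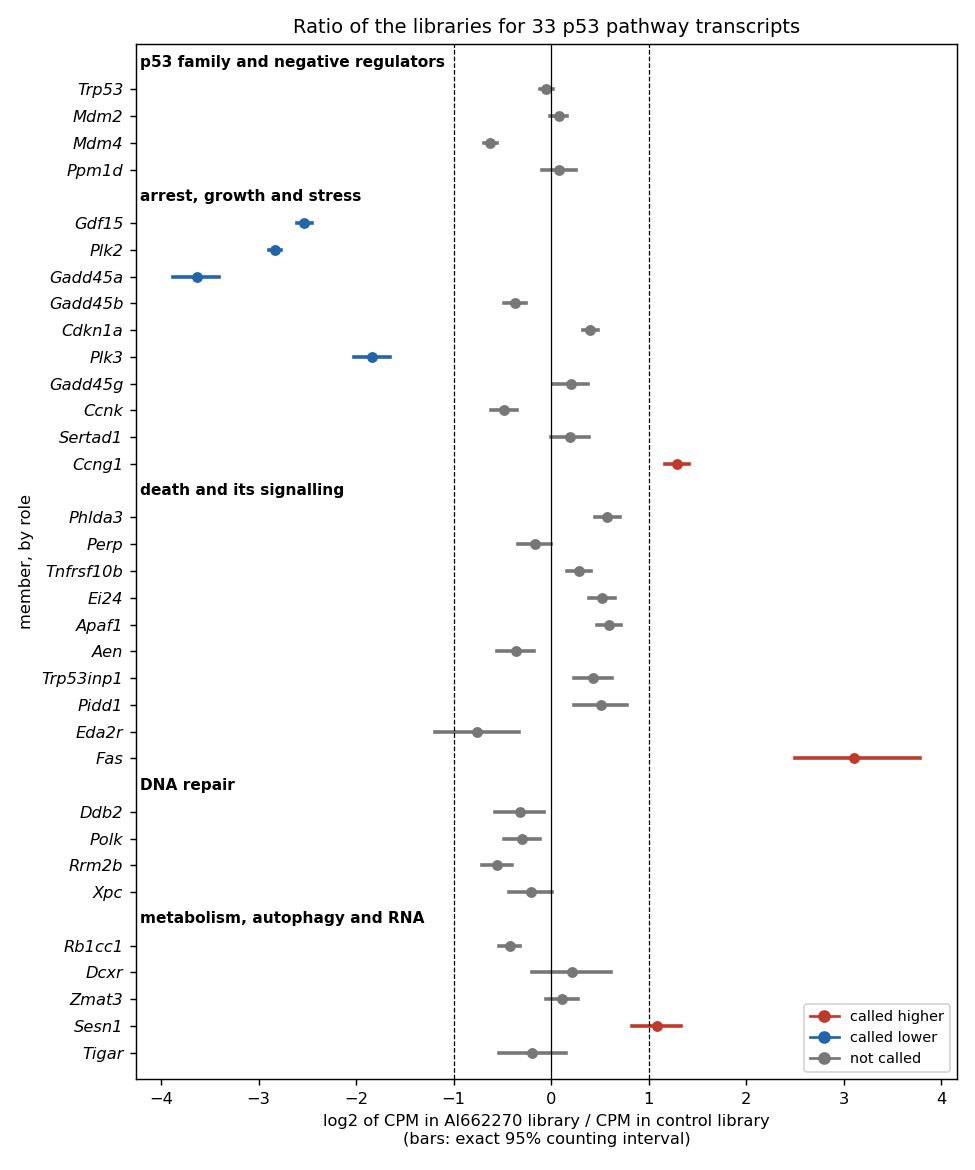
Ratio of CPM in the AI662270 library to CPM in the control library for the 33 measured members, on a log2 axis without pseudocount, grouped by role. Points are ratios, bars are exact 95% counting intervals and dashed lines mark 2-fold. Gadd45a, Plk2, Gdf15 and Plk3 lie left of the dashed lines and Fas, Ccng1 and Sesn1 right of them.

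Plk2 and Gdf15 had the most counts of the set in the control. All members together summed to 3645 and 2123 CPM. The 4 lower members made up 1844 and 281 CPM of this, or 50.6% and 13.2% of the members' sum. The 26 members that were not called summed to 1738 and 1683 CPM. The rule chose the 4 genes for being lower, so the fall in their share follows from that choice. It also left the 26 with smaller differences, so their sums are not a separate result. Among the 15 members that averaged 50 CPM or more, 3 were lower and 1 higher, beside 5.20% lower and 1.30% higher of 5152 genes at that level. Among the 7 members below 20 CPM, 2 were higher and 0 lower, beside 11.6% higher and 7.24% lower of 5027 genes.

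**Figure D2:**
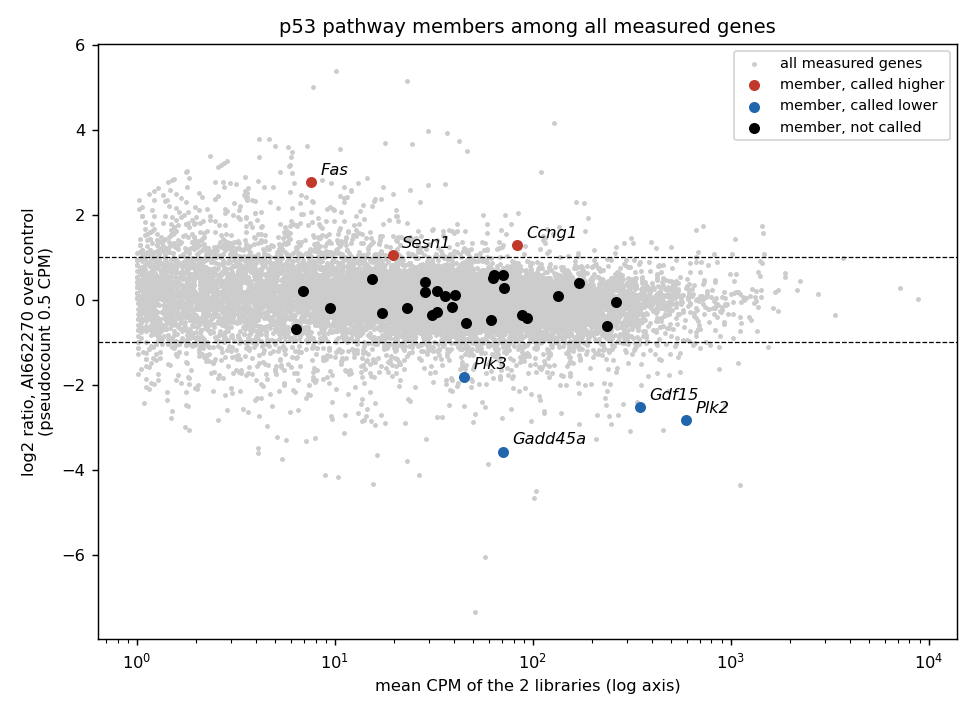
Mean CPM of both libraries (log axis) against the log2 ratio, AI662270 over control, for all 13268 measured genes (grey) and the 33 members (coloured or black). Dashed lines mark a log2 ratio of 1 in either direction. Plk2 and Gdf15 are abundant and lower, Fas is scarce and higher, and 26 members lie between the dashed lines.

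Messenger RNA of p53 itself was abundant and nearly level between the libraries. Trp53, on chromosome 11 from 69580359 to 69591873 in mm10, had 4062 and 4026 counts. Its ratio was 0.967 (0.926 to 1.01), and the log2 ratio of -0.05 became 0.05 with scaling by total counts and 0.02 by upper quartiles. Per kilobase of gene length its level was 66.1 CPM in the control, above 94.5% of measured genes, and 63.9 CPM in the AI662270 library. Trp73, which encodes the p53 relative p73, had 0 and 3 counts, at or under the floor of 3 counts (0.197 and 0.193 CPM), so no ratio is given.

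The negative regulators did not pass the rule of size. Mdm2, the ubiquitin ligase that marks p53 for degradation, had 1994 and 2157 counts and a ratio of 1.06 (0.993 to 1.12). Mdm4, which binds p53 and masks its activation domain, had 4352 and 2892 counts, a ratio of 0.648 (0.618 to 0.680). Ppm1d, a phosphatase that removes damage-induced phosphates from p53 and its kinases, had 533 and 577 counts and a ratio of 1.06 (0.937 to 1.19). Mdm4 was thus 1.54-fold lower with an interval that excludes 1, while the intervals of Mdm2 and Ppm1d include it. Those intervals take the scaling as fixed. The log2 ratio of Mdm2 was 0.08, but 0.17 with scaling by total counts and 0.15 by upper quartiles.

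Genes of arrest, growth and stress held all 4 of the lower members and 1 higher one among 10 measured. Of all measured genes, 5.72% were called lower and 5.59% higher. The median log2 ratio of this role was -0.42. Roles were assigned after the members' values were seen, and several members could be placed in more than 1 role. Cdkn1a encodes p21, the inhibitor of cyclin-dependent kinases through which p53 arrests the cycle. Its counts were 2235 and 3023, a ratio of 1.32 (1.25 to 1.39) that is short of the 2-fold mark. Ccng1, on chromosome 11 from 40748552 to 40755311, encodes cyclin G1, a p53 target that recruits a phosphatase to Mdm2. Counts of 740 and 1851 made it 2.44-fold higher (2.24 to 2.66). Its log2 ratio of 1.28 was exceeded in size by 6.44% of measured genes. Ccnk, a cyclin that partners transcriptional kinases, had 1092 and 803 counts and a ratio of 0.718 (0.654 to 0.787). Sertad1, a coregulator that binds CDK4, had 406 and 476 counts and a ratio of 1.14.

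The GADD45 family showed unequal differences among its 3 genes, which encode small stress proteins that act on kinases, the cell cycle and DNA repair. Gadd45a, on chromosome 6 from 67035096 to 67037457, had 1987 and 164 counts. It was 12.4-fold lower (10.6 to 14.7), with a log2 ratio of -3.57, and 0.211% of measured genes had a larger one in size. Gadd45b had 1514 and 1199 counts, a ratio of 0.773 (0.716 to 0.834), and Gadd45g had 463 and 545 counts, a ratio of 1.15 (1.01 to 1.30). The 3 intervals do not overlap.

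The order of the GADD45 levels per kilobase also differed between the libraries. In the control Gadd45a stood at 74.1 CPM per kilobase (70.9 to 77.4), above Gadd45b at 62.7 (59.6 to 65.9) and Gadd45g at 25.96 (23.7 to 28.4). In the AI662270 library Gadd45b led with 48.4 CPM per kilobase (45.7 to 51.2), followed by Gadd45g with 29.8 (27.4 to 32.4), and Gadd45a was last with 5.97 (5.09 to 6.95). Neighbours in each order differ beyond their counting intervals. The antisense gene E230016M11Rik shares 337 exon bases with Gadd45a and had 36 and 8 counts. Whether counting used strand is not stated, so reads in the shared part cannot be assigned to either.

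Both polo-like kinase genes of the set were lower. Plk2, on chromosome 13 from 110395046 to 110400844, encodes a kinase of the stress response and of centriole duplication. Its counts were 15912 and 2296, 7.10-fold lower (6.80 to 7.42). Plk3, on chromosome 4 from 117128655 to 117133963, encodes a related kinase that can phosphorylate p53. Counts of 1068 and 307 made it 3.57-fold lower (3.14 to 4.06). The intervals of the pair do not overlap, so Plk2 differed more than Plk3. Plk3 shares 84 exon bases with Tctex1d4, which had 3 counts in each library.

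Gdf15, on chromosome 8 from 70629393 to 70632456, encodes a secreted cytokine of the TGF-beta family that is released by stressed cells. Its counts of 9071 and 1610 made it 5.77-fold lower (5.48 to 6.09). Per kilobase it had the highest level of all 34 members in the control, 322 CPM, and it had 55.8 CPM (53.1 to 58.6) in the AI662270 library, where it was below Trp53 and its interval overlapped that of Cdkn1a at 54.6 (52.7 to 56.6). Plk2 was next to it in the control with 233 CPM per kilobase and had 32.8 (31.5 to 34.2) in the AI662270 library, where its interval overlapped that of Ccng1 at 33.8 (32.3 to 35.4).

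**Figure D3:**
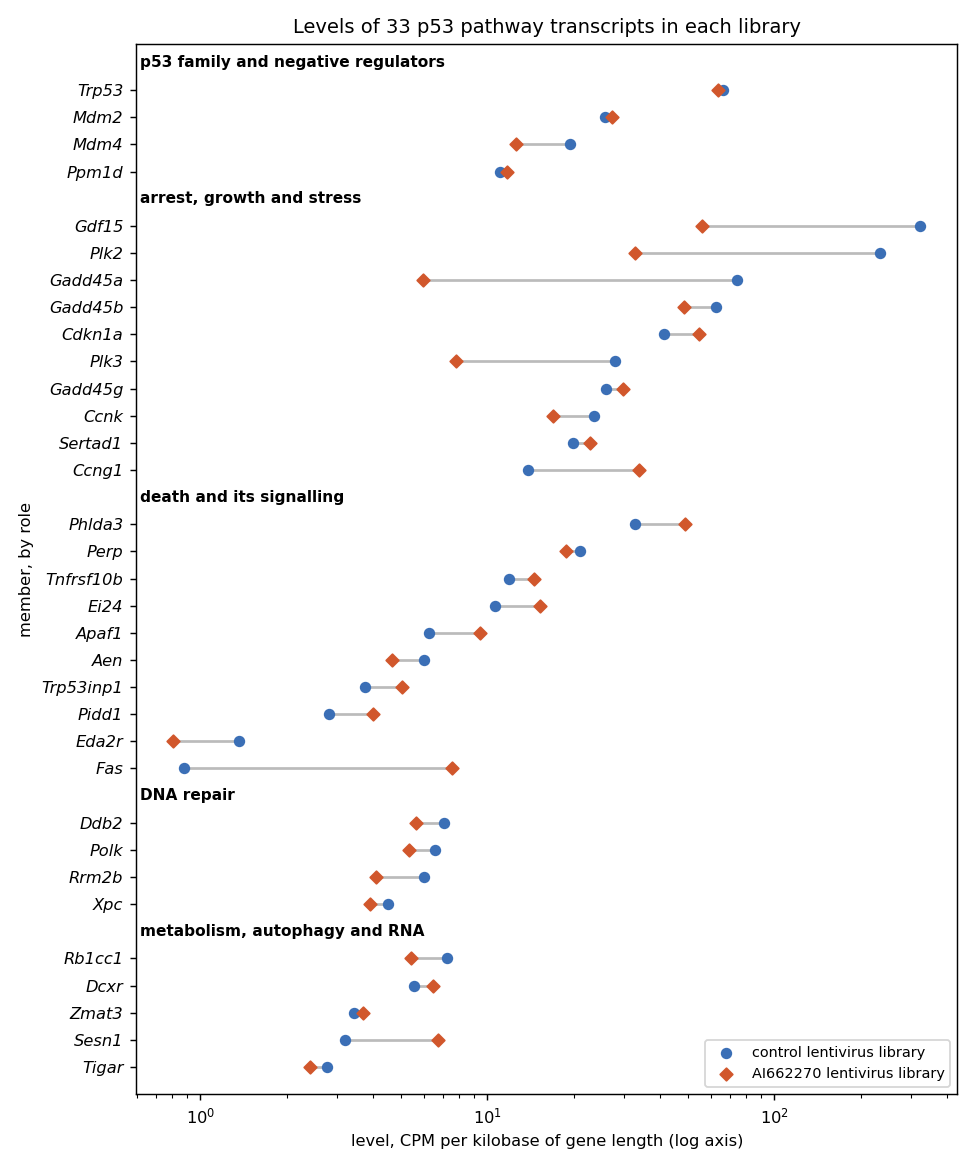
Level of each measured member per kilobase of gene length, in CPM on a log axis, in the control library (circles) and the AI662270 library (diamonds), grouped by role and ordered by the control level. The 2 symbols of Trp53 nearly coincide, Gadd45a lies at 74.1 and 5.97, and Fas lies at 0.877 in the control and 7.55 in the AI662270 library.

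The genes of cell death contained the largest difference upward. Fas, on chromosome 19 from 34290659 to 34327770, encodes the death receptor for Fas ligand. Its counts were 24 and 212, or 1.58 and 13.6 CPM. It was 8.62-fold higher (5.64 to 13.8), with a log2 ratio of 2.76 after the pseudocount. A log2 ratio larger in size was found for 0.633% of measured genes. The other receptor genes of this role were not called. Tnfrsf10b, the mouse receptor for the ligand TRAIL, had 986 and 1231 counts and a ratio of 1.22 (1.12 to 1.33). Eda2r, the receptor for an isoform of ectodysplasin, had 122 and 74 counts and a ratio of 0.592 (0.437 to 0.796).

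Downstream death genes had smaller ratios, none of which passed the rule of size. Apaf1, the scaffold of the apoptosome, had 859 and 1326 counts and a ratio of 1.51 (1.38 to 1.64). Phlda3, which encodes an inhibitor of Akt, had 775 and 1184 counts and a ratio of 1.49 (1.36 to 1.63). Ei24, which encodes a membrane protein of the endoplasmic reticulum, had 786 and 1157 counts and a ratio of 1.44 (1.31 to 1.57). These intervals lay above 1. So did that of Pidd1, a scaffold for caspase activation, with 193 and 281 counts and a ratio of 1.42 (1.18 to 1.72). Trp53inp1, a cofactor of p53, had 368 and 508 counts and a ratio of 1.35 (1.18 to 1.54), also above 1. Aen, a nuclease of apoptotic cells, had 529 and 421 counts and a ratio of 0.777 (0.682 to 0.884). Perp, a membrane protein of desmosomes, had 626 and 570 counts and a ratio of 0.888 (0.792 to 0.997). Of the 10 death genes 7 had log2 ratios above 0, and their median was 0.46. Of all 13268 measured genes, 6458 were above 0, and the median was -0.02. In this role 1 gene was called higher and 0 lower, beside 5.59% and 5.72% of all measured genes. With 10 genes, and roles assigned after the values were seen, these counts do not set the role apart.

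The 4 DNA repair members all had log2 ratios below 0, from -0.55 to -0.21, and none was called. Of all 13268 measured genes, 6810 were below 0, 5.59% were called higher and 5.72% lower. With 4 genes, and roles assigned after the values were seen, neither the shared sign nor the absence of calls sets this role apart. Ddb2, which recognises ultraviolet damage, had 294 and 241 counts and a ratio of 0.800 (0.672 to 0.952). It shares 652 exon bases with Acp2 on the opposite strand, which had 858 and 865 counts, so its counts are uncertain without strand. Xpc, the damage sensor of nucleotide excision repair, had 376 and 333 counts and a ratio of 0.864 (0.743 to 1.004). Polk, a polymerase that copies past lesions, had 554 and 461 counts and a ratio of 0.812 (0.716 to 0.920). Rrm2b, the p53-induced subunit of ribonucleotide reductase, had 835 and 584 counts and a ratio of 0.682 (0.613 to 0.759). Its antisense gene Gm49085 had 7 and 1 counts and shares 734 exon bases with it.

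Of the members that act in metabolism, autophagy and RNA turnover, Sesn1 stood apart. Sesn1, on chromosome 10 from 41809935 to 41908424, encodes sestrin 1, which restrains mTORC1 and oxidants. Its counts of 193 and 418 made it 2.11-fold higher (1.78 to 2.52). Its log2 ratio of 1.05 is just inside the threshold, and it was 0.97 with a pseudocount of 2 CPM. Tigar, a phosphatase that slows glycolysis, had 154 and 138 counts and a ratio of 0.874 (0.690 to 1.11). Dcxr, a sugar reductase, had 97 and 115 counts and a ratio of 1.16 (0.875 to 1.53). Zmat3, an RNA-binding protein, had 595 and 658 counts and a ratio of 1.08 (0.964 to 1.21). Intervals of these 3 genes include 1. Rb1cc1, a subunit of the complex that starts autophagy, had 1623 and 1241 counts and a ratio of 0.746 (0.692 to 0.804), and its antisense gene 4732440D04Rik shares 558 exon bases and had 13 and 31 counts.

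In the authors' deposited table, 5 of the 34 members had an adjusted p-value under 0.05. There Fas was higher, with a log2 fold change of 3.10, and Gadd45a, Plk2, Gdf15 and Plk3 were lower, at -3.63, -2.83, -2.53 and -1.83. The authors' deposited table gave Ccng1 an adjusted p-value of 0.0516 and Sesn1 0.166. Of 20667 genes with an adjusted p-value in the authors' deposited table, 2.21% were higher and 2.13% lower at that limit. Those p-values come from 1 library against 1 and hold no measured spread between replicates.

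The genes around each called member were compared with it, a check chosen after the members' values were seen. Over all measured genes, 5.59% were called higher and 5.72% lower. Fas had 10 measured genes with a start within 1 Mb, with a median log2 ratio of -0.80. The nearest upstream of it was Acta2, the smooth muscle actin gene and a mesangial marker, whose start lies at -35.3 kb from that of Fas. Acta2 had 12 and 171 counts, so both genes of this adjacent pair were called higher. On the other side Ifit1, Ifit2, Ifit3 and Ifit3b, which are interferon-induced genes with close copies among themselves, were called lower.

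Gadd45a had 7 such genes with a median of -0.23, and its antisense gene, with a log2 ratio of -1.50, was among those called lower. Gdf15 lay among 77 measured genes with a median of 0.17, 5 called higher and 1 lower, beside 5.59% and 5.72% of all measured genes. Plk3 lay among 32 with a median of -0.08, 1 called each way. Ccng1 had 5 with a median of 0.22, of which the pseudogene Hspd1-ps3 was called higher, and Sesn1 had 15 with a median of 0.05 and none called. Plk2 had no other measured gene that near. Medians over whole chromosomes of the 7 members lay between -0.14 for Sesn1 on chromosome 10 and 0.06 for Gdf15 on chromosome 8.

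**Figure D4:**
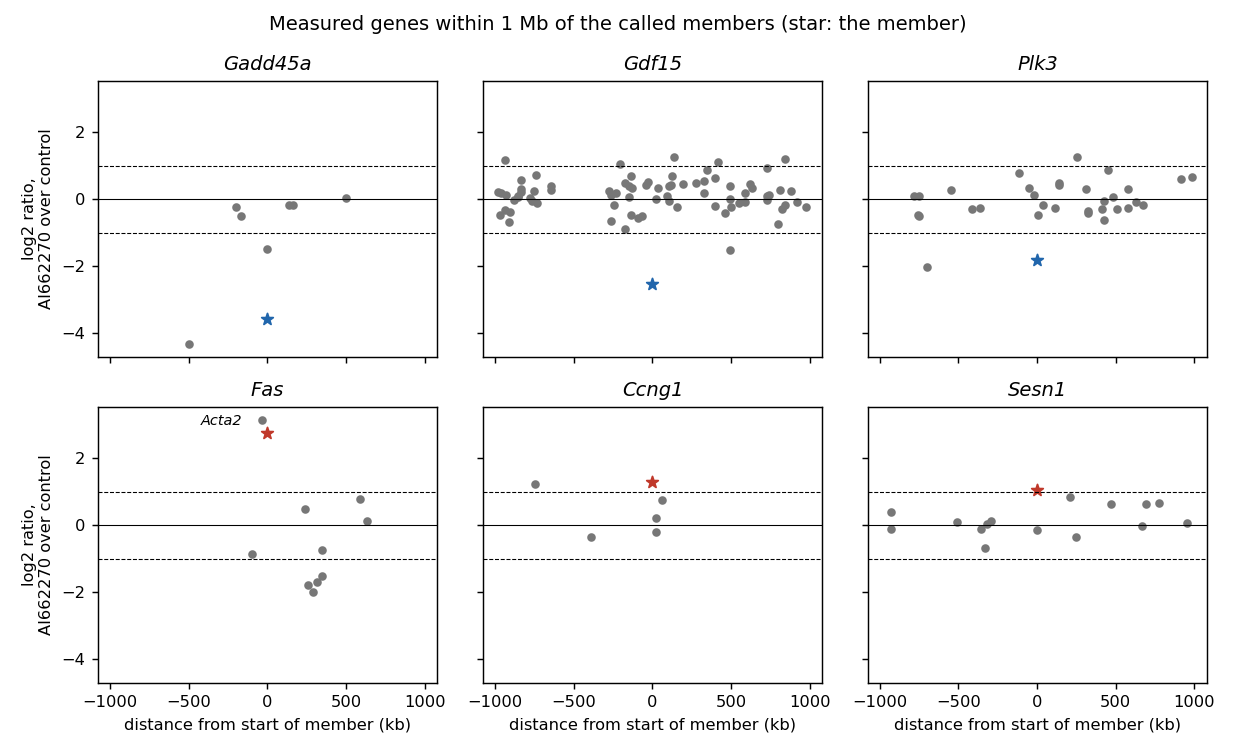
Log2 ratio, AI662270 over control, of each measured gene with a start within 1 Mb of a called member, against its distance from the member's start in kilobases (negative is upstream). Stars are the members and dots the other genes. Fas and Acta2 lie together at the top of their panel, and Gdf15 and Plk3 lie below most genes around them.

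Other genes of the pathway were read against the same background, 5.59% of all measured genes called higher and 5.72% called lower. Among 22 measured regulators of p53 protein and activity, 0 were higher and 1 was lower, with a median log2 ratio of -0.12, which is near those shares. The lower gene was Daxx, which encodes a chaperone for histone deposition that also binds Mdm2, with 2191 and 1023 counts, 2.19-fold lower (2.04 to 2.37). Trp63, which encodes the other p53 relative, had 0 counts in both libraries. That is under the floor of 3 counts and does not show that the transcript was absent.

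Of 26 measured other direct targets of p53, 2 were higher and 3 lower, beside 5.59% and 5.72% of all measured genes, and the median log2 ratio was 0.23. Counts this small do not set the list apart from those shares. Epha2, a receptor tyrosine kinase gene with 6129 and 2068 counts, was 3.04-fold lower (2.89 to 3.19). Sesn2, the paralog of Sesn1 with 1350 and 614 counts, was 2.25-fold lower (2.05 to 2.48), opposite in direction to Sesn1. Btg2, an antiproliferative gene with 1481 and 695 counts, was 2.18-fold lower (1.99 to 2.39). The higher genes were Ak1 and Steap3. Ak1, an adenylate kinase gene with 82 and 193 counts, was 2.30-fold higher (1.76 to 3.01). Steap3, an iron reductase gene with 37 and 86 counts, was 2.27-fold higher (1.53 to 3.43). With a pseudocount of 2 CPM neither of these was called.

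None of the 16 measured genes of the cell division cycle that p53 represses through p21 and the DREAM complex passed the rule of size. At the shares of all measured genes, 5.59% higher and 5.72% lower, few calls would fall in a list of this length, so the absence of calls says little about it. The 16 log2 ratios lay between -0.37 and 0.55 with a median of 0.20, and 11 were above 0. Top2a, the topoisomerase of mitotic chromosomes, had 17940 and 19050 counts, and the proliferation marker Mki67 had 8162 and 10076. Their log2 ratios were 0.05 and 0.27. Among 12 genes of double strand break and crosslink repair none was called, to which the same limit applies, and the median was 0.17. Brca1 had 2586 and 2658 counts and Rad50 1907 and 2420, with log2 ratios of 0.0042 and 0.31.

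**Figure D5:**
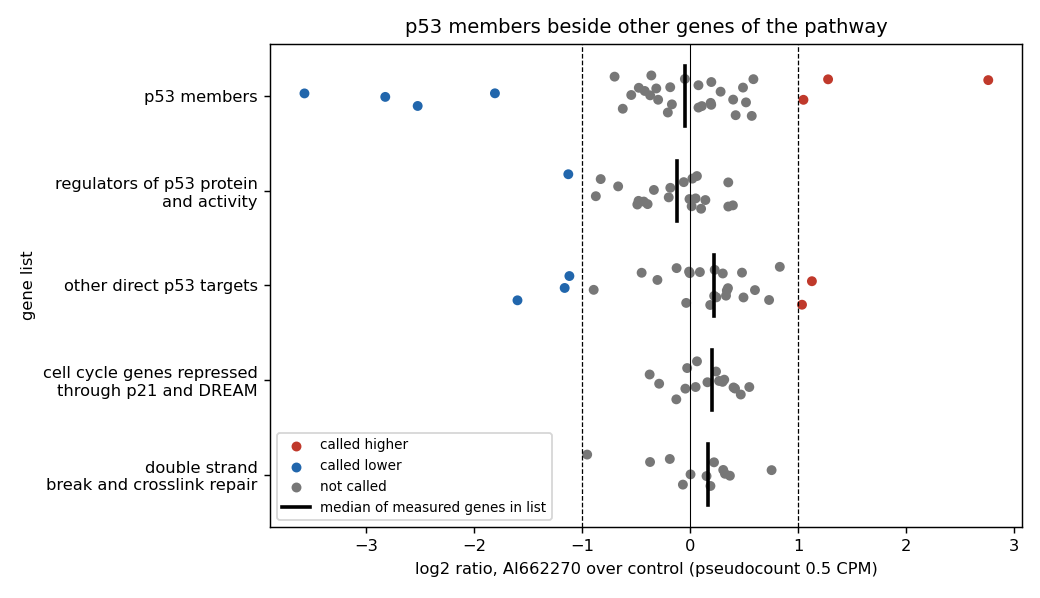
Log2 ratio, AI662270 over control, of measured genes in the p53 members and 4 other lists, with black bars at the medians and dashed lines at a log2 ratio of 1 in either direction. The members span -3.57 to 2.76, the p21 and DREAM list spans -0.37 to 0.55, and the medians of the 5 lists lie between -0.12 and 0.23.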

How the data were processed

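The members, lists and rules used here were chosen with earlier results of these data known. Per the submitters' processing notes, CASAVA 1.4 and TopHat2 were used with build mm10. For the counter, the annotation release and strand use, the entry is: not given in the sources used here. The deposited count columns hold whole reads per gene, unnormalized, judged from their values. The deposited FPKM columns are counts per gene length and per a divisor of 15391166 in both libraries, per the file values, so their ratio is one of raw counts. Log2 fold changes and p-values of the authors were copied and not recomputed. Columns headed Con were read as the library titled Lv_NC, the only control. A second deposited table held the 897 rows with an adjusted p-value under 0.05 and was not used further.

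Counts were scaled by TMM factors (0.967 control, 1.03 AI662270) from edgeR 4.0.16 in R 4.3.3, and CPM, ratios and exact Clopper-Pearson (ratio) or Poisson (level) intervals were computed in Python 3.11.15 with scipy 1.17.1. The calling rule ran over all genes averaging 1 CPM or more and was tested on simulated data that held counting error only. Such data cannot show how the rule acts on differences between cultures. Reads carry no molecular identifiers, so intervals and floors cover counting error only. Named genes were all members by role and, of each other list, up to 4 called genes with the largest log2 ratios or the 2 most abundant; Steap3, the marker genes and the genes under other observations were named after their values were seen. Of a symbol in several rows, the row with most counts was used. Overlaps come from GENCODE M21, which held the deposited coordinates of 33 of the 34 members found. Promoters are printed for 5 of the 7 called members and for Cdkn1a, from RefSeq. Alternatives were 3 other scalings (total counts, DESeq2 1.42.0 size factors, upper quartiles), a pseudocount of 0.1 or 2 CPM, dropping the filter or raising it to 5 CPM, calling at 1.5-fold or 3-fold, and using the FPKM columns. The role groups, the motifs and the comparison with nearby genes were chosen after the members' values were seen. Values of some genes are not reported here.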

Additional observations from a re-analysis of the deposited data

How the results depend on the processing

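All 4 lower members stayed called lower under the 10 alternatives, and Fas stayed called higher. Ccng1 was lost only at a 3-fold threshold, and Sesn1 at 3-fold and with a pseudocount of 2 CPM (0.97). At 3-fold the members called higher were 1. At 1.5-fold Apaf1 was added as higher and Mdm4 and Eda2r as lower. Trp53 alone changed sign, with 2 scalings. DESeq2 size factors were 1 in both libraries, so that setting and the FPKM columns both rest on the ratio of raw counts.

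Regulators of p53 called lower numbered 4 at 1.5-fold and 0 at 3-fold. Other targets called higher numbered 5 at 1.5-fold, 0 at 3-fold and with 2 CPM, and 1 with a minimum of 5 CPM or on the FPKM columns; those called lower numbered 1 at 3-fold. Repair genes numbered 1 higher and 1 lower at 1.5-fold. Over all genes the share called higher was 5.59%, but 3.01% with 2 CPM, 3.59% with a minimum of 5 CPM, 3.66% on the FPKM columns, 12.9% at 1.5-fold and 1.86% at 3-fold, and the share called lower was 14.3% at 1.5-fold and 1.97% at 3-fold. With 1 library per group, depth limits Fas, Eda2r and Dcxr most.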

Other observations

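The subunits of the Ku heterodimer, which binds broken DNA ends, differed in opposite directions, although neither passed the rule of size. They were singled out with their values in view. Xrcc5 had 512 and 891 counts, a ratio of 1.70 (1.52 to 1.90), and Xrcc6 had 1753 and 924 counts, a ratio of 0.514 (0.474 to 0.557). Of 22 regulators, the checkpoint kinase genes upstream of p53 had ratios on opposite sides of 1, and neither passed the rule of size, with 875 and 486 counts for Chek1, a ratio of 0.542 (0.484 to 0.606), and 529 and 695 for Chek2, a ratio of 1.28 (1.14 to 1.44). The kinase genes Atm and Atr had ratios of 1.07 (0.986 to 1.17) and 1.01 (0.917 to 1.12), with intervals that include 1.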
